A study of Caenorhabditis elegans with 16 samples.

Results

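The comparison described here asks what the mutant alleles of a pair of receptor-like genes, irld-39 and irld-52, did to messenger RNA in Caenorhabditis elegans larvae whose insulin receptor gene daf-2 was already mutant. The 4 libraries titled LRB457 or LRB458, which combine allele duk1 of irld-39 and allele duk17 of irld-52 with daf-2(e1370) and are called the triple mutant, were set against the 4 libraries titled CB1370, which carry daf-2(e1370) alone and are called the daf-2 single mutant. These are 8 of the 16 libraries of the series. The other 8 libraries, 4 of wild-type strain N2 and 4 of strain LRB444 with the same irld alleles and normal daf-2 (the irld mutant), share the model fit and are quoted as reference levels. All groups were whole larvae of the first stage (L1) that hatched in buffer without food. They were collected at 20 °C, 12 hours after hatch and 24 hours after the embryos were released from adults by bleaching. There were 10000 larvae per library and 4 libraries per group, which the labels call biological replicates.

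Both groups compared carry daf-2(e1370), so the contrast holds the irld alleles and any other difference between the strains. LRB457 and LRB458 are independent lines of the triple mutant, with 2 libraries each (replicates 1 and 3 of LRB457, replicates 1 and 4 of LRB458). The daf-2 single mutant is the single strain CB1370, so what the irld alleles change and what else differs between CB1370 and both lines cannot be told apart. The RNA is that of whole animals, in which fewer cells of a type and less RNA per cell cannot be told apart.

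DAF-2 is the worm's receptor for insulin-like peptides. When it is active, a kinase cascade keeps the FoxO transcription factor DAF-16 out of the nucleus, and when it is impaired, DAF-16 turns on genes of stress resistance and arrest. L1 arrest is the halt of development in larvae that hatch without food, and daf-2 single mutants are known to survive it longer. The irld genes encode proteins with extracellular domains like the ligand-binding L domains of insulin and EGF receptors, and many of them lie in clusters on the chromosomes.

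The 8 libraries held between 15527842 and 24903552 counts assigned to genes, and 14058 genes were tested. A muscle marker was high and an adult marker low, which does not by itself identify the L1 stage. The muscle myosin gene unc-54 had 15020 ± 1737 CPM (counts scaled to an equal library total) in the daf-2 single mutant and 15020 ± 1396 CPM in the triple mutant (mean ± SD, 4 libraries each). The adult yolk gene vit-2 had 1.49 ± 2.09 and 2.75 ± 3.21 CPM. The libraries of both groups were spread along the first principal component of all 16 libraries, which held 42.4% of the variance, from -58.1 to -4.36 in the daf-2 single mutant and from -61.4 to -19 in the triple mutant. The wild-type and irld mutant libraries lay between 31.4 and 38.3. Replicates 2 and 4 of the daf-2 single mutant and LRB458 replicate 1 had the values nearest to those of the other strains. Results are given without these 3 libraries where leaving them out changed a call.

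The genes that carry the alleles were read first. irld-39 on chromosome IV had 4, 2, 1 and 6 counts in replicates 1 to 4 of the daf-2 single mutant, 5 and 12 counts in LRB457 and 4 and 5 counts in LRB458. irld-52 on chromosome V had 1, 5, 1 and 10 counts in the daf-2 single mutant, 3 and 8 counts in LRB457 and 6 and 10 counts in LRB458. Both genes were near the limit of detection in every library and neither passed the filter of 1 CPM in at least 4 libraries. The summed counts gave a ratio of triple mutant to daf-2 single mutant of 1.75 for irld-39 (95% exact counting interval 0.869 to 3.71) and of 1.39 for irld-52 (0.731 to 2.72), so a difference in either transcript was not detectable at this depth. daf-2 itself on chromosome III had 481, 468, 426 and 429 CPM in the daf-2 single mutant and 456, 414, 374 and 406 CPM in the triple mutant, in the order LRB457 and then LRB458. The ranges overlapped, and the log2 fold change was -0.13 ± 0.22 (SE) with an adjusted p of 0.948 (edgeR quasi-likelihood test, Benjamini-Hochberg). These transcript levels do not check the alleles, which need not change the amount of RNA. No gene was called among those tested within 100 kb of irld-39 (7 genes), irld-52 (21 genes) or daf-2 (21 genes).

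In the triple mutant relative to the daf-2 single mutant, 13 of 14058 genes (0.0925%) were called at an adjusted p under 0.05, of which 2 (0.0142%) were higher and 11 (0.0782%) lower in the triple mutant. At an unadjusted p under 0.05 there were 915 genes (6.51%), 537 of them higher (3.82%) and 378 lower (2.69%). All 13 called genes lie on chromosome V, which held 2974 of the tested genes (21.2%), and of these 0.437% were called. In all 13 the 4 libraries of one group lay outside the range of the other group, as they did in 889 genes overall (6.32%), 284 higher (2.02%) and 605 lower (4.3%). The count fell to 8 without daf-2 single mutant replicate 1 and to 7 without replicate 2, 3 or 4. irld-35, irld-53, srbc-15 and ZC190.8 reached 1 CPM in the daf-2 single mutant libraries and in no other library of the series, so they were tested only because this group was high, and they cannot pass the filter once 1 of its 4 libraries is gone. With no filter on low counts, over 30794 genes, all 13 were called among 16. With genes at 1 CPM in at least 3 libraries, a filter chosen after the data were seen, the same omissions gave 11 or 12 calls. Without the 3 libraries near the other strains on the first component, 6 genes were called, and 9 with a filter of at least 2 libraries.

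**Figure D1:**
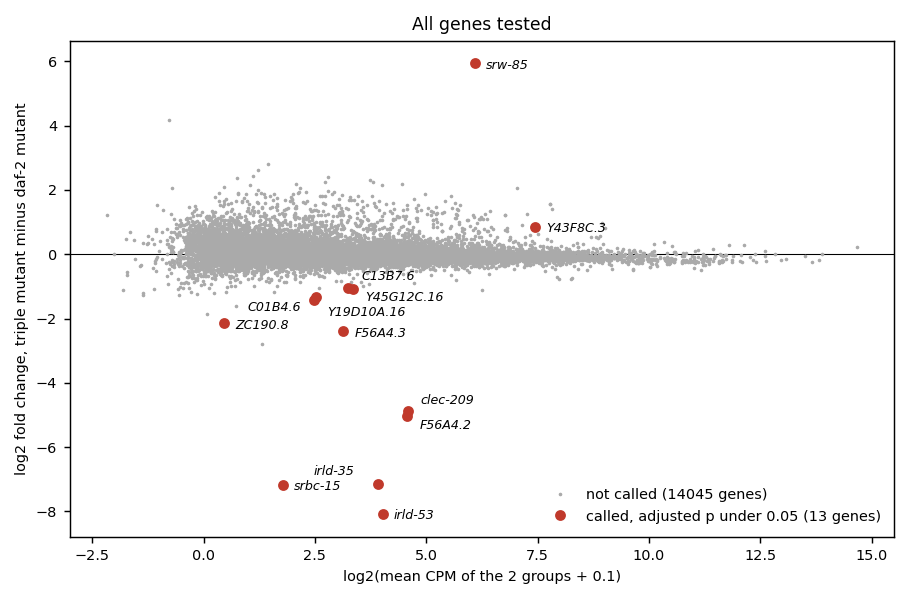
Log2 fold change of the triple mutant over the daf-2 single mutant (vertical axis) against the log2 of the mean CPM of both groups plus 0.1 (horizontal axis), with 1 point per gene tested. The 13 called genes are red and named: srw-85 stands alone at the top at 5.94, and irld-53, srbc-15 and irld-35 lie lowest, between -8.08 and -7.15.

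Of the 13 called genes, 10 lie in a stretch of 185.5 kb of chromosome V (2345676 to 2531174, coordinates of the WBcel235 assembly), all lower in the triple mutant. The stretch runs from the first to the last of these called genes, so its edges were set by the calls and its count is a description. It holds 18 tested genes, with a median log2 fold change of -1.06. In the 100 kb to its left none of 19 tested genes was called, and their median was 0.0478. In the 100 kb to its right none of 14 was called, with a median of -0.10.

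Much of the stretch is present as a pair of near copies. In the annotation, 21 pairs of genes whose first member lies in the stretch carry a single symbol for both members, with the second member 107961 to 108279 bases further along. Some second members, such as Y45G12C.4 and Y45G12C.3, lie in the 100 kb to the right of the stretch. That side is therefore not separate from it. The authors' alignment kept 1 place for reads that matched up to 2 places, so a read from one copy could be counted to the other and the members of a pair cannot be told apart. For each pair the counts were therefore also summed and the test repeated over 14037 features, of which 9 (0.0641%) were called, 4 of them pairs of the stretch. Of the 14 pairs with enough counts to be tested, 13 had a lower mean in the triple mutant than in the daf-2 single mutant. The exception, chosen after its values were seen, was F56A4.5 with Y45G12C.4, whose summed level ranged from 0.159 to 34.3 CPM within the daf-2 single mutant and from 0.34 to 32.5 CPM within the triple mutant. In all 14 tested pairs the mean was higher in the daf-2 single mutant than in wild type. Both counts are descriptions, since the stretch was bounded by genes called lower in the triple mutant. The 4 called pairs are among the 14. Among all genes tested, 6539 of 14058 had a log2 fold change above 0 between triple and daf-2 single mutant.

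**Figure D2:**
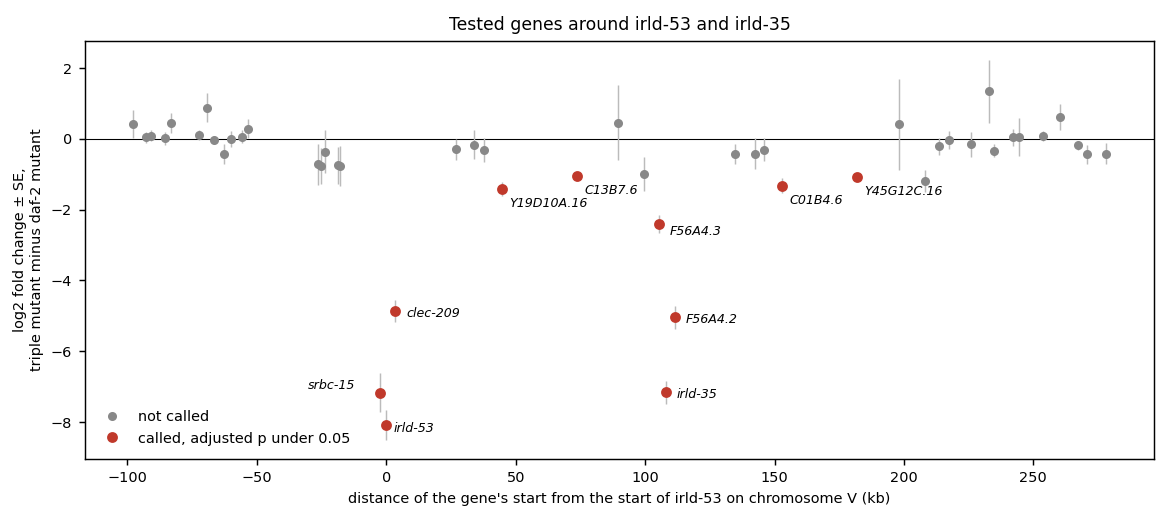
Log2 fold change with SE of the triple mutant over the daf-2 single mutant (vertical axis) for the tested genes around irld-53 and irld-35, by the distance of each gene's start from the start of irld-53 in kb (horizontal axis). Red points are called genes, and they form a pair of series, one starting at srbc-15 just before irld-53 and the other at F56A4.3 just before irld-35.

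The largest difference was in a pair of receptor-like genes of the same family as the mutated ones. irld-53 (V, 2348215 to 2350325, minus strand) and irld-35 (V, 2456176 to 2458286, minus strand) are protein-coding genes whose own functions are not described in the annotation used here. irld-53 had 32.9, 37.7, 25.09 and 33.1 CPM in the daf-2 single mutant, 0 and 0.0592 CPM in LRB457 and 0.0973 and 0.232 CPM in LRB458. irld-35 had 27.7, 36.9, 23.9 and 31.4 CPM in the daf-2 single mutant, 0.253 and 0.237 CPM in LRB457 and 0.146 and 0.193 CPM in LRB458. Every daf-2 single mutant library was therefore high and every triple mutant library close to 0. In counts, irld-53 had 2152 in the daf-2 single mutant against 9 in the triple mutant, a level 273 times as high (95% counting interval 143 to 598), and irld-35 had 2005 against 16, a level 143 times as high (87.8 to 251). The log2 fold changes were -8.08 ± 0.41 for irld-53 (adjusted p = 8.25e-09, edgeR) and -7.15 ± 0.32 for irld-35 (adjusted p = 2.46e-09). Since both passed the filter through the daf-2 single mutant alone, the test was also read with no filter, where the adjusted p was 3.21e-11 for irld-53 and 9.53e-18 for irld-35. The wild-type and irld mutant libraries were as low as the triple mutant: the pair summed to 62.2 ± 10.6 CPM in the daf-2 single mutant, against 0.304 ± 0.0835 in the triple mutant, 0.264 ± 0.200 in the irld mutant and 0.103 ± 0.0378 in wild type (mean ± SD, 4 libraries each). The difference of the summed pair between triple mutant and wild type did not pass (adjusted p = 0.076, edgeR), in a contrast where 20.4% of genes were called.

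Directly beside irld-53 lies srbc-15 (V, 2345676 to 2348123, plus strand), annotated as a pseudogene of a chemoreceptor family. It had 6.37, 8.57, 5.51 and 6.13 CPM in the daf-2 single mutant, 0.0632 and 0.118 CPM in LRB457 and 0 CPM in both LRB458 libraries. Like irld-53, it was detected well in the daf-2 single mutant and at 3 counts in all in the triple mutant, 1 in the irld mutant and 0 in wild type. The daf-2 single mutant level was 168 times that of the triple mutant by summed counts, with a wide counting interval of 57.2 to 818 (log2 fold change -7.17 ± 0.55, adjusted p = 1.83e-05, edgeR). It too passed the filter through the daf-2 single mutant alone, and with no filter its adjusted p was 2.06e-10. srbc-15 lies on the strand opposite to irld-53 and next to it, and how strand was counted is not given in the sources used here.

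The pair clec-209 (V, 2351676 to 2352932) and F56A4.2 (V, 2459637 to 2460893), both on the plus strand, behaved differently. C-type lectins are carbohydrate-binding proteins, many of them secreted and known for changing in worm immunity. clec-209 had 46.3, 46.3, 39.5 and 52.8 CPM in the daf-2 single mutant, 1.39 and 0.769 CPM in LRB457 and 1.65 and 2.32 CPM in LRB458. F56A4.2 had 43.6, 45.7, 37.8 and 55.6 CPM in the daf-2 single mutant, 1.52 and 0.592 CPM in LRB457 and 1.36 and 1.93 CPM in LRB458. Here the triple mutant was below every other strain: the summed pair had 2.88 ± 1.18 CPM in the triple mutant, 91.9 ± 12.8 in the daf-2 single mutant, 37.1 ± 8.05 in the irld mutant and 43.1 ± 15.45 in wild type (mean ± SD, 4 libraries each). The summed pair fell by 4.97 ± 0.32 on the log2 scale against the daf-2 single mutant (adjusted p = 4.69e-07, edgeR). It was also lower in the triple mutant than in wild type, with a log2 fold change of -3.87 ± 0.31 (adjusted p = 1.37e-06). Against the irld mutant, a contrast in which 18.4% of genes were called, it was -3.66 ± 0.31 (adjusted p = 2.55e-06). The irld mutant and wild type did not differ past the threshold (-0.22 ± 0.26, adjusted p = 0.84).

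F56A4.3 (V, 2453414 to 2456147, plus strand), which lies next to irld-35 on the other strand, showed an intermediate level. It had 14.2, 15.9, 15.0 and 13.4 CPM in the daf-2 single mutant, 3.54 and 2.54 CPM in LRB457 and 1.51 and 3.48 CPM in LRB458. The triple mutant libraries lay below all daf-2 single mutant libraries, and their mean of 2.77 ± 0.955 CPM stood above 1.18 ± 0.128 CPM in the irld mutant and 1.502 ± 0.507 CPM in wild type. The fall against the daf-2 single mutant was -2.40 ± 0.25 on the log2 scale (adjusted p = 8.56e-05, edgeR). The triple mutant was higher than wild type by 0.87 (adjusted p = 0.0291) and higher than the irld mutant by 1.23 (adjusted p = 0.00497).

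Another pair of gene copies had a moderately lower level in the triple mutant, with little spread. Their functions are not described in the annotation used here. C13B7.6 (V, 2421867 to 2422895) had 13.1, 12.33, 13.5 and 11.8 CPM in the daf-2 single mutant, 5.95 and 6.04 CPM in LRB457 and 6.86 and 5.79 CPM in LRB458. Its copy Y45G12C.16 (V, 2530146 to 2531174) had 13.9, 13.1, 14.1 and 13.5 CPM, then 6.89 and 6.04 CPM, then 7.05 and 5.95 CPM. The groups stood far apart relative to their spread, and the triple mutant lay near the level of the other strains. Summed, the pair had 26.3 ± 1.12 CPM in the daf-2 single mutant, 12.64 ± 0.967 in the triple mutant, 12.26 ± 0.958 in the irld mutant and 10.7 ± 0.863 in wild type (mean ± SD, 4 libraries each). The log2 fold change of the sum against the daf-2 single mutant was -1.06 ± 0.09 (adjusted p = 1.14e-05, edgeR).

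The fourth called pair, Y19D10A.16 (V, 2392772 to 2394147) and C01B4.6 (V, 2501051 to 2502426), was also lower in the triple mutant. Y19D10A.16 had 6.87, 8.82, 7.13 and 9.14 CPM in the daf-2 single mutant against 3.10, 3.37, 2.73 and 2.74 CPM in the triple mutant. C01B4.6 had 5.995, 8.02, 8.75 and 9.56 CPM against 3.92, 3.37, 2.87 and 2.82 CPM. The summed pair had 16.07 ± 2.44 CPM in the daf-2 single mutant, 6.23 ± 0.763 in the triple mutant, 7.86 ± 0.981 in the irld mutant and 7.94 ± 2.16 in wild type, so the triple mutant had the lowest mean here. The log2 fold change of the sum against the daf-2 single mutant was -1.37 ± 0.18 (adjusted p = 0.00154, edgeR). Counted apart, the copies were less stable: without LRB457 the adjusted p was 0.0616 for Y19D10A.16 and 0.0686 for C01B4.6, without LRB458 it was 0.235 and 0.481, and without the 3 libraries near the other strains it was 0.224 for both. For C01B4.6 the adjusted p was also above 0.05 without LRB458 replicate 1 (0.0535), without LRB458 replicate 4 (0.0703) and without daf-2 single mutant replicate 2 (0.0541), 3 (0.0592) or 4 (0.0808).

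**Figure D3:**
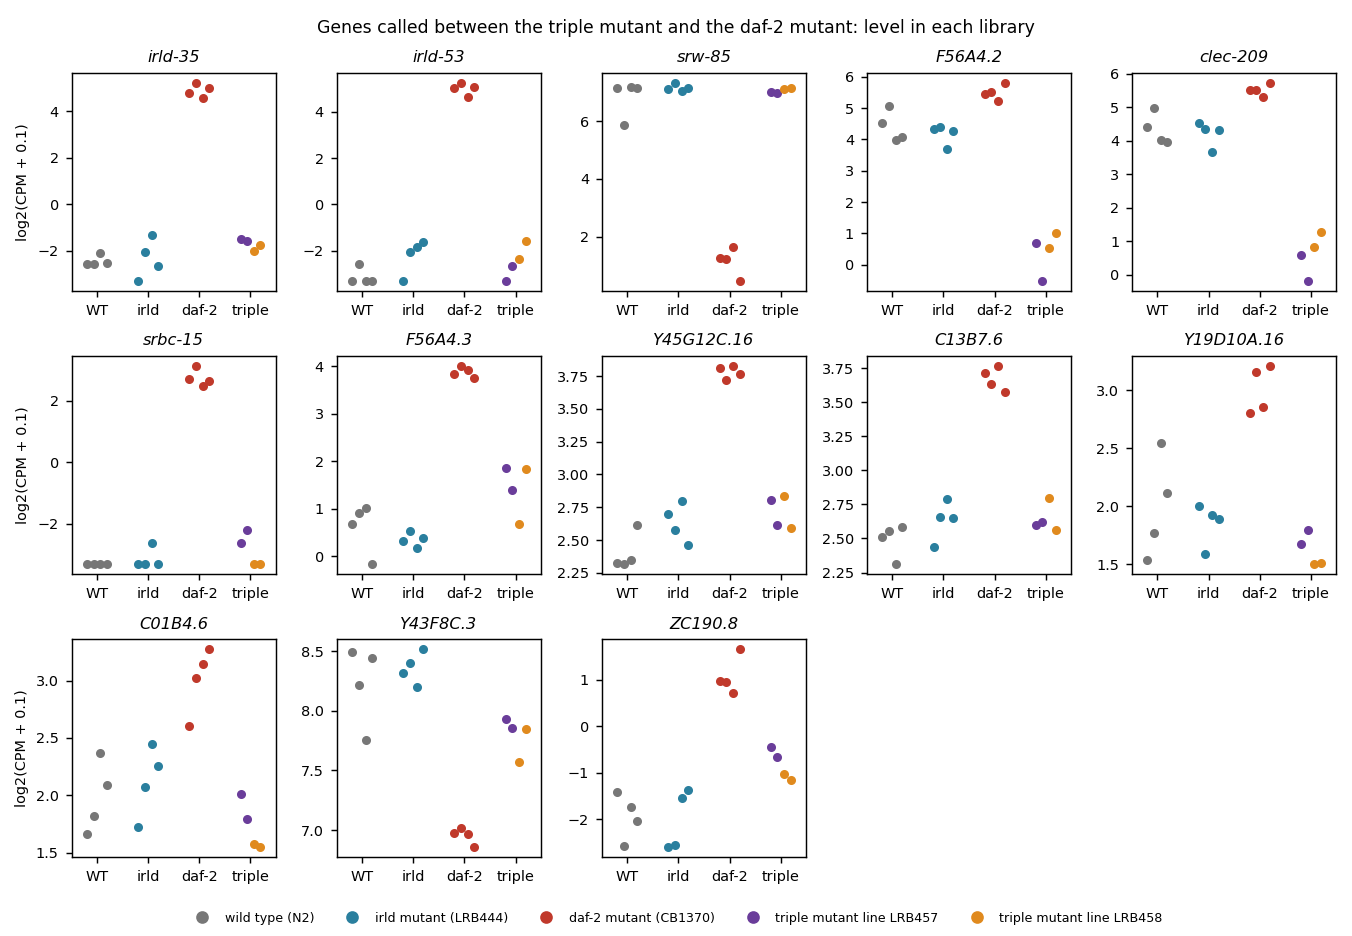
Level of each of the 13 called genes in the 16 libraries, as log2 of CPM plus 0.1 (vertical axis, scaled per gene), by strain (horizontal axis: wild type, irld mutant, daf-2 single mutant and triple mutant, the last coloured by line). For irld-35, irld-53, srbc-15, C13B7.6 and srw-85 the daf-2 single mutant stands apart from the other strains, whereas for clec-209 and F56A4.2 the triple mutant is the lowest group.

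The gene that rose most was srw-85 (V, 19429387 to 19431136, minus strand), a predicted chemoreceptor of the serpentine class W family of G protein-coupled receptors. It had 2.31, 2.22, 2.98 and 1.27 CPM in the daf-2 single mutant, 130 and 126 CPM in LRB457 and up to 141 CPM in LRB458 (replicate 4). The triple mutant libraries were uniform and stood at the level of the irld mutant, 143 ± 11.9 CPM, and of wild type, 122 ± 42.9 CPM (mean ± SD, 4 libraries each), where replicate 2 had 58.2 CPM and the others between 142 and 147. The log2 fold change against the daf-2 single mutant was 5.94 ± 0.30 (adjusted p = 8.25e-09, edgeR). In summed counts the triple mutant level was 65.5 times that of the daf-2 single mutant (95% counting interval 55.5 to 77.8). Against the irld mutant the triple mutant differed by -0.09 ± 0.23 (adjusted p = 0.835). Of the 32 genes tested within 100 kb of srw-85, no other was called.

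Y43F8C.3 (V, 19614506 to 19622626, minus strand), a protein-coding gene without a described function in the annotation used here, was the other gene that rose. It had 126, 130, 125 and 116 CPM in the daf-2 single mutant, 243 and 232 CPM in LRB457 and 190 and 231 CPM in LRB458. The triple mutant lay above the daf-2 single mutant in every library, and its mean of 224 ± 23.3 CPM lay below those of the irld mutant (329 ± 30.3) and wild type (305 ± 65.3). The log2 fold change was 0.85 ± 0.14 (adjusted p = 0.0157, edgeR). The call rested on the whole set of libraries: the adjusted p rose to between 0.0702 and 0.122 without any 1 of daf-2 single mutant replicates 1 to 4, LRB457 replicates 1 and 3 and LRB458 replicate 4, and was 0.423 without line LRB457 and 0.081 without LRB458. Without the 3 libraries near the other strains it was 0.224 (log2 fold change 0.91), and 0.139 with a filter of at least 2 libraries.

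A pair of neighbours of Y43F8C.3 had higher values in the triple mutant without passing the threshold. dyf-19 (V, 19625049 to 19630761), whose product is part of the base of sensory cilia, had 4.56, 4.69, 6.48 and 4.01 CPM in the daf-2 single mutant against 13.6, 13.5, 8.03 and 11.1 CPM in the triple mutant, with no overlap (log2 fold change 1.23 ± 0.24, adjusted p = 0.102, edgeR). nlp-26 (V, 19613461 to 19614534), a gene of the neuropeptide-like family, had 0.937, 0.678, 2.92 and 1.37 CPM against 4.49, 7.93, 2.92 and 11.4 CPM, with an adjusted p of 0.324. nlp-26 overlaps the end of Y43F8C.3 on the opposite strand, and without strand in the counting their reads cannot be told apart there.

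The last called gene, ZC190.8 (V, 8686952 to 8687807, minus strand), was a low one and fell. It had 1.87, 1.85, 1.56 and 3.06 CPM in the daf-2 single mutant, 0.632 and 0.533 CPM in LRB457 and 0.389 and 0.347 CPM in LRB458. The groups did not overlap, and the irld mutant (0.166 ± 0.115 CPM) and wild type (0.171 ± 0.0864 CPM) were lower still. The log2 fold change was -2.15 ± 0.37 (adjusted p = 0.0315, edgeR), from 142 counts against 36. ZC190.8 also passed the filter through the daf-2 single mutant alone, and with no filter its adjusted p was 0.0175. The adjusted p was above 0.05 without LRB457 replicate 1 (0.0624), LRB457 replicate 3 (0.117), LRB458 replicate 1 (0.133) or LRB458 replicate 4 (0.249), and it was 0.231 without the 3 libraries near the other strains, with a filter of at least 2 libraries. With all libraries kept it was 0.0739 with a replicate block, 0.0764 without TMM scaling and 0.157 against a 1.5-fold change (edgeR). In a fit of the 8 libraries of the compared groups it was 0.0813. The neighbouring ZC190.10 (V, 8692198 to 8696318) had 1.37 to 1.58 CPM in the daf-2 single mutant against 0.253 to 0.592 CPM in the triple mutant, with an adjusted p of 0.179. ZC190.10 too reached 1 CPM in the daf-2 single mutant libraries alone, so it was tested only because this group was high.

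Just outside the threshold, ZK105.1 (V, 7713991 to 7714698) had 0.562, 1.11, 1.04 and 1.00 CPM in the daf-2 single mutant and 1.52, 3.31, 4.23 and 4.52 CPM in the triple mutant, a log2 fold change of 1.87 ± 0.35 with an adjusted p of 0.073 (edgeR). Next came ugt-17 (V, 10102592 to 10104964), a UDP-glycosyltransferase of the family that attaches sugars to small molecules, with 9.31, 7.71, 8.43 and 10.51 CPM against 12.9, 15.6, 13.3 and 21.8 CPM and an adjusted p of 0.101. In both genes every triple mutant library was above every daf-2 single mutant library. The omega-3 fatty acid desaturase gene fat-1 on chromosome IV had 218 to 275 CPM in the daf-2 single mutant and 153 to 180 CPM in the triple mutant, and its log2 fold change of -0.53 ± 0.12 did not pass (adjusted p = 0.23). Among the other genes that did not overlap, ugt-12 had 14.2 to 20.6 CPM against 24.0 to 31.5 CPM (adjusted p = 0.358), and the lectin gene clec-57 had 2.77 to 4.37 CPM against 5.16 to 7.78 CPM (adjusted p = 0.238). The ribonuclease H gene rnh-1.3 had 1.69 to 3.28 CPM against 0.632 to 0.888 CPM (adjusted p = 0.114). rnh-1.3 reached 1 CPM in the daf-2 single mutant libraries alone. It was tested only because this group was high, and its lack of overlap followed from the filter.

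The independent lines gave the same direction for all 13 called genes. This follows from the lack of overlap in all 13 and is no separate support for the calls. Taken alone, LRB457 differed from the daf-2 single mutant in 9 genes (0.064%) and LRB458 in 12 (0.0854%), with 9 called in both. The call of LRB458 outside the 13 was ZK105.1 (log2 fold change 2.23, adjusted p = 0.0292). These contrasts share the daf-2 single mutant libraries, and their triple mutant libraries are those that gave the 13 calls. Y45G12C.16, for example, had log2 fold changes of -1.08 in LRB457 (adjusted p = 0.00582, edgeR) and -1.07 in LRB458 (adjusted p = 0.00548), and srw-85 had 5.87 and 6.002. Of the 13, Y19D10A.16 and C01B4.6 passed in LRB458 alone (adjusted p = 0.0335 and 0.04, against 0.163 and 0.363 in LRB457), while Y43F8C.3 and ZC190.8 passed in neither line. A direct comparison of LRB458 with LRB457 called 0 of 14058 genes in edgeR, with 349 (2.48%) at an unadjusted p under 0.05, and the fit of these 4 libraries alone also called 0. Among the 13 genes the lowest unadjusted p of that comparison was 0.0213, for srbc-15, which had 1 and 2 counts in LRB457 and 0 in LRB458.

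The called genes were also read against wild type, in contrasts that share the daf-2 single mutant or the triple mutant libraries with the one above and are given side by side. Relative to wild type, srw-85 was at -5.81 ± 0.30 on the log2 scale in the daf-2 single mutant (adjusted p = 6.5e-09, edgeR) and at 0.13 ± 0.23 in the triple mutant (adjusted p = 0.744). Y43F8C.3 was at -1.299 ± 0.14 in the daf-2 single mutant (adjusted p = 1.37e-05) and at -0.45 ± 0.14 in the triple mutant (adjusted p = 0.0301). Y45G12C.16 was at 1.39 ± 0.12 (adjusted p = 1.1e-06) and at 0.32 ± 0.12 (adjusted p = 0.0659) in the same order, and F56A4.3 at 3.28 ± 0.27 (adjusted p = 9.33e-07) and 0.87 ± 0.27. clec-209 had opposite signs, 1.14 ± 0.25 in the daf-2 single mutant (adjusted p = 0.00609) and -3.73 ± 0.30 in the triple mutant (adjusted p = 1.34e-06). Of all genes tested, 15.7% were called between the daf-2 single mutant and wild type.

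Whether the strains with irld alleles differed from their controls by another amount where daf-2 was mutant was tested as an interaction, the change from daf-2 single mutant to triple mutant minus the change from wild type to irld mutant. It was called for 9 genes (0.064%), 2 higher (0.0142%) and 7 lower (0.0498%), 7 of which are among the 13: irld-35, irld-53, F56A4.2, clec-209, C13B7.6, Y45G12C.16 and srw-85. irld-35 and irld-53 were tested only because the daf-2 single mutant was high, and this group also enters the interaction. With no filter on low counts the adjusted p of their interaction was 1.97e-06 for irld-35 and 6.28e-05 for irld-53 (edgeR). Between the irld mutant and wild type the log2 fold changes were 0.22 for srw-85, -0.29 for F56A4.2, -0.15 for clec-209, 0.24 for Y45G12C.16, 0.15 for C13B7.6 and 0.51 for irld-35, none past the threshold, in a contrast with 1 call (0.00711%). irld-53 had the largest value of the 7, 2.59 ± 1.06 (adjusted p = 0.69, edgeR), from 9 counts in the irld mutant and 1 in wild type (ratio 8.28, 95% counting interval 1.15 to 363), and this value enters its interaction. The interaction was not past the threshold for F56A4.3 (log2 difference -2.05, adjusted p = 0.0683), C01B4.6 (-1.46, 0.124), Y19D10A.16 (-1.24, 0.345), Y43F8C.3 (0.74, 0.59), srbc-15 (-8.80, 0.756, with 0 counts in wild type) or ZC190.8 (-2.14, 0.756). The count was 15 without wild-type replicate 4 and 5 without daf-2 single mutant replicate 3 or 4. With copies summed, 6 interactions were called (0.0427%).

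The other interaction calls were in ttr-50 and ugt-64, and with no filter on low counts neither passed (adjusted p = 0.0738 and 0.056, edgeR). ttr-50 (IV, 11640047 to 11641015), of the transthyretin-related family of secreted proteins, had 20.9, 25.04, 22.8 and 23.04 CPM in the daf-2 single mutant and 37.4, 56.2, 47.9 and 51.8 CPM in the triple mutant. Its groups did not overlap, but the change itself was not called (log2 fold change 1.07 ± 0.25, adjusted p = 0.399, edgeR). In the irld mutant it had 7.71 ± 3.30 CPM against 18.4 ± 5.49 in wild type, the opposite direction. That difference was not called either (adjusted p = 0.69), and the libraries overlapped, with 11.9 CPM in irld mutant replicate 3 and 10.69 in wild-type replicate 4. The interaction was 2.33 ± 0.37 (adjusted p = 0.0197). ugt-64 differed between irld mutant and wild type (1.05 ± 0.13, adjusted p = 0.00549), and between triple and daf-2 single mutant by -0.09 ± 0.12 (adjusted p = 0.92). Wild type was the strain that stood apart, with 4.39 ± 0.379 CPM. The irld mutant had 9.12 ± 0.683, the daf-2 single mutant 9.45 ± 1.27 and the triple mutant 8.88 ± 0.955 CPM.

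The authors' deposited table of the same interaction holds 12690 genes, of which 9 have an adjusted p under 0.05. They are the 9 genes called here. In the authors' deposited table the signs run the other way (all 12 of the 13 genes it holds have the opposite sign), with a log2 value of -5.76 for srw-85, 10.6 for irld-53 and 4.68 for clec-209. ZC190.8 is the gene of the 13 that was not compared with it.

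In the insulin pathway itself no change was called. The list of the signalling core (24 genes, all tested) had a median log2 fold change of -0.06, with 1 gene higher and 0 lower at an unadjusted p under 0.05, against a median of -0.0159 over all genes tested. daf-16 had 223, 253, 224 and 217 CPM in the daf-2 single mutant and 234, 232, 195 and 217 CPM in the triple mutant, and the ranges overlapped (log2 fold change -0.06 ± 0.15, adjusted p = 0.965, edgeR). Of 39 insulin-like peptide genes 21 were tested and none was called, with 16 above 0 (6539 of 14058 among all genes) and a median of 0.23. The ligand gene daf-28 had 1.75 to 7.397 CPM in the daf-2 single mutant and 2.77 to 6.39 CPM in the triple mutant (adjusted p = 0.992). ins-7, which encodes another ligand, had 0 to 3 counts per library in the daf-2 single mutant and 1 to 4 in the triple mutant, too few to test.

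Genes described as induced by DAF-16 did not separate the groups either. Of 27 tested genes 0 were called, 12 were above 0 (6539 of 14058 among all genes) and the median was -0.02. sod-3, a mitochondrial superoxide dismutase used as a readout of DAF-16 activity, had 46.8, 42.0, 37.2 and 35.6 CPM in the daf-2 single mutant and 42.1, 40.6, 31.1 and 37.02 CPM in the triple mutant. Both groups were above every irld mutant and wild-type library, which had 10.2 to 24.5 CPM, and overlapped each other (log2 fold change -0.10 ± 0.23, adjusted p = 0.964, edgeR). The metallothionein gene mtl-1 had 462 ± 26.2 CPM against 415 ± 49.1 (-0.15 ± 0.19, adjusted p = 0.911), and the small heat shock gene hsp-12.6 had 60.3 ± 9.54 against 56.7 ± 20.6 (-0.09 ± 0.26, adjusted p = 0.977; mean ± SD, 4 libraries each). These genes did not share the position of sod-3 against the other strains. mtl-1 had 264 ± 44.4 CPM in the irld mutant and 415 ± 125 in wild type. hsp-12.6 was higher in the other strains, with 133.5 ± 11.6 CPM in the irld mutant and 168 ± 57.9 in wild type.

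Of 55 gene lists, 3 held called members, where 13 of all 14058 genes (0.0925%) were called. The irld family had 15 of 58 genes tested and 2 called, irld-35 and irld-53. These are a pair of near copies and were tested only because the daf-2 single mutant was high. Of the 15 genes, 3 were above 0, against 6539 of 14058 among all genes. The C-type lectins had 1 called of 86 tested under that name, clec-209, and the chemoreceptors had 1 higher (srw-85) and 1 lower (srbc-15) of 189 tested. srbc-15 too was tested only because the daf-2 single mutant was high. All other lists had 0 called members in edgeR, and their medians and counts at an unadjusted p under 0.05 are given as a description.

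Lists of cuticle and epidermal genes had medians above that of all genes. The cuticle collagens (102 tested), the main proteins of the worm's exoskeleton, had a median of 0.30, with 17 higher and 2 lower at an unadjusted p under 0.05. The molting genes (22 tested) had a median of 0.33 with 5 higher and 0 lower, and the hedgehog-related and patched-related genes (56 tested), many of them active at molts, 0.32 with 11 higher and 0 lower. In the last 2 lists and the collagens these are 22.7%, 19.6% and 18.6% of the members, against 6.51% of all genes. The members with the highest CPM differed little: col-42 had 7224 ± 936.5 CPM in the daf-2 single mutant and 7259 ± 529 in the triple mutant, and the endocytic receptor gene lrp-1 had 1016 ± 161 and 970 ± 167 (mean ± SD, 4 libraries each). noah-2, which encodes a protein of the apical matrix shed at molts, had 12.4, 15.8, 7.26 and 5.50 CPM in the daf-2 single mutant against 26.6, 16.8, 28.9 and 13.7 CPM in the triple mutant, and the groups overlapped (log2 fold change 1.07 ± 0.35, adjusted p = 0.666).

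The mean log2 CPM of the collagen list was 3.26, 2.75, 3.64 and 2.69 in the daf-2 single mutant, 3.58 and 3.52 in LRB457 and 3.33 and 3.82 in LRB458, so daf-2 single mutant replicates 2 and 4 were low and replicate 3 lay within the triple mutant range. Of the 7 hypodermis markers fixed for this comparison, 5 were tested, and their summed level ranged from 126 to 290 CPM in the daf-2 single mutant and from 264 to 430 CPM in the triple mutant. Their mean log2 CPM did not overlap, with 3.59 to 4.51 in the daf-2 single mutant and 4.56 to 4.89 in the triple mutant, and their median log2 fold change was 0.715, with 2 of the 5 (40%) higher at an unadjusted p under 0.05 and 0 called. dpy-7 had 2.38 to 6.68 CPM against 6.39 to 15.4 CPM, and lin-26, a transcription factor of the epidermis, 58.4 to 70.01 CPM against 56.4 to 68.1 CPM. Their part in the collagen values was not tested.

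Detoxification families varied as much within groups as between them. The glutathione S-transferases (43 tested, median 0.25, 2 higher and 0 lower at an unadjusted p under 0.05) had list means of 4.09, 3.53, 4.89 and 3.34 in the daf-2 single mutant, 4.50 and 4.77 in LRB457 and 3.25 and 5.06 in LRB458, on the log2 CPM scale. The lowest and the highest value both belonged to line LRB458. The cytochrome P450 genes (66 tested, median 0.26, 6 higher and 1 lower) ran from 2.54 to 3.80 in the daf-2 single mutant and from 2.65 to 3.91 in the triple mutant, with the same LRB458 libraries at the ends of the latter range. The UDP-glycosyltransferases (57 tested, median 0.32) had 14 higher and 2 lower, 28.1% of members against 6.51% of all genes. Their means ran from 2.36 to 3.09 and from 2.62 to 3.54. ugt-62, one of their 2 members with the highest CPM, had 38.8 ± 41.2 CPM against 81.3 ± 61.3 (adjusted p = 0.799, edgeR).

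**Figure D4:**
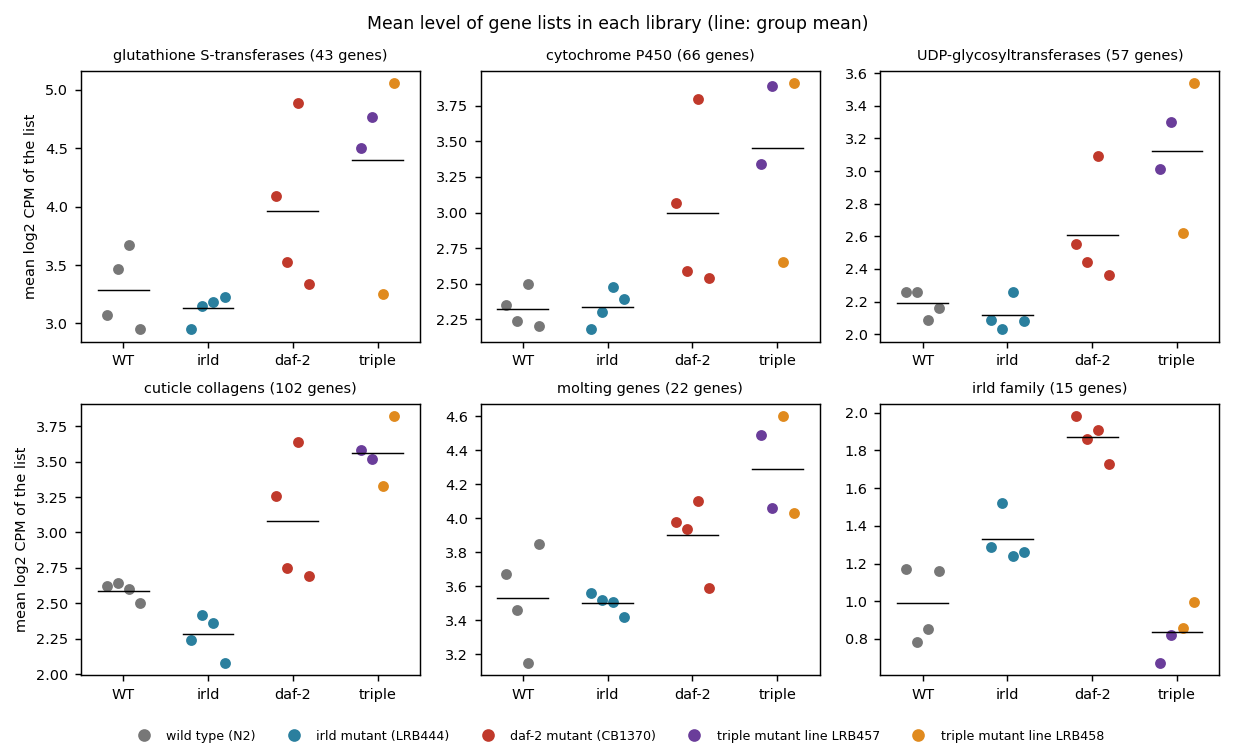
Mean log2 CPM of 6 gene lists in each of the 16 libraries (vertical axis), by strain (horizontal axis), with the group mean as a line. In the detoxification lists the daf-2 single mutant and triple mutant libraries overlap. The irld family mean lies between 1.73 and 1.98 in the daf-2 single mutant and between 0.674 and 0.996 in the triple mutant. The 15 tested genes of that family include irld-35 and irld-53, which passed the filter through the daf-2 single mutant alone. The gap is therefore not a result about the other members.

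Defence and heat shock lists had high medians with few members at low p. The epidermal antimicrobial peptides (18 tested) had a median of 0.77 and 17 members above 0, against 6539 of 14058 among all genes. At an unadjusted p under 0.05, 2 were higher (11.1% of the list, against 6.51% of all genes). nlp-29 had 176 ± 104 CPM in the daf-2 single mutant and 242 ± 106 in the triple mutant. The small heat shock proteins (16 tested) had a median of 0.56 with 0 at an unadjusted p under 0.05. hsp-16.48 had 49.2 ± 54.9 against 106 ± 84.1 CPM (mean ± SD, 4 libraries each), a spread within groups as large as the difference.

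Growth-related lists lay on the other side of the median. Of 79 cytosolic ribosomal protein genes 1 had a fold change above 0, against 6539 of 14058 among all genes. The median was -0.22, and 5 were lower at an unadjusted p under 0.05 (6.33%, against 6.51% of all genes). rpl-3 had 6745 ± 819 CPM in the daf-2 single mutant and 5812 ± 492 in the triple mutant (log2 fold change -0.22 ± 0.14, adjusted p = 0.803, edgeR). The DNA replication genes (25 tested) had a median of -0.19, the cell cycle genes (26 tested) -0.16 and the aminoacyl-tRNA synthetases (20 tested) -0.15. The early embryo markers, RNA laid down by the mother, summed to 21.8 to 100 CPM in the daf-2 single mutant, with replicate 3 lowest, and 42.1 to 75.3 CPM in the triple mutant. Their part in these values was not tested.

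Several metabolic and signalling lists had medians near that of all genes. The gluconeogenesis, glyoxylate and trehalose genes (19 tested, median -0.04), the fatty acid oxidation genes (56 tested, median 0.06), the genes of TOR and AMPK signalling (23 tested, median -0.03) and the autophagy genes (26 tested, median 0.0087) had 0 called members and at most 1 each at an unadjusted p under 0.05. pck-2, a phosphoenolpyruvate carboxykinase gene of gluconeogenesis, had 2562 ± 361 CPM in the daf-2 single mutant and 2165 ± 232 in the triple mutant (adjusted p = 0.828, edgeR). The autophagy gene lgg-1 had 865 ± 98.9 and 922 ± 76.2 CPM. The fatty acid desaturases and elongases (20 tested) also had a median near 0 (-0.04) but more members at an unadjusted p under 0.05, 3 higher and 2 lower, which are 25% of the list against 6.51% of all genes. The lower ones were the desaturase genes fat-1 and fat-3 (log2 fold changes -0.53 and -0.30), and the higher ones were the desaturase gene fat-6 (0.55) and the elongase genes elo-5 (1.39) and elo-9 (0.51). The nuclear hormone receptors (206 tested) had 10 higher and 4 lower at an unadjusted p under 0.05, and the F-box and MATH-BTB genes (261 tested) 4 higher and 12 lower.

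**Figure D5:**
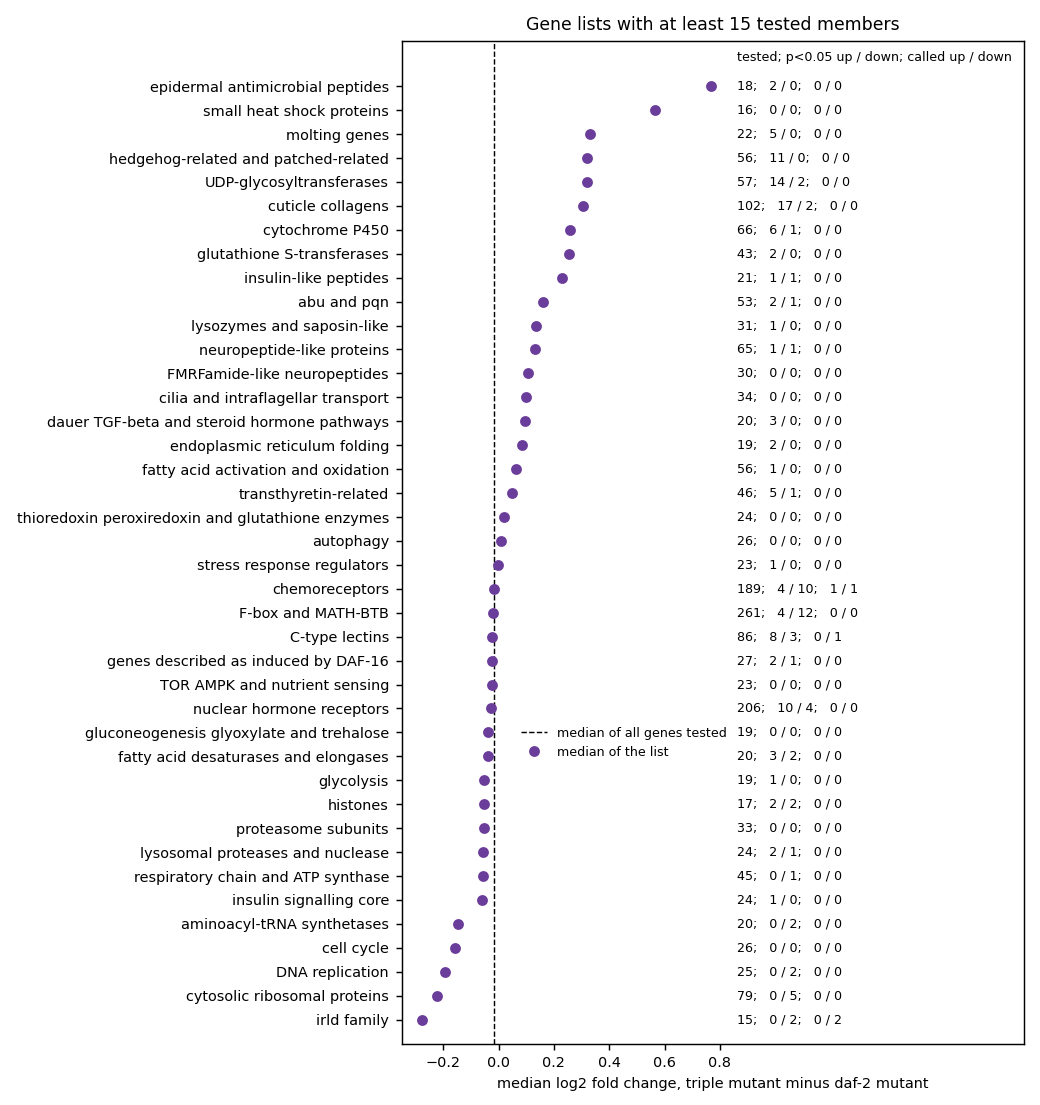
Median log2 fold change of the triple mutant over the daf-2 single mutant (horizontal axis) of the gene lists with at least 15 tested members (vertical axis), with the median of all genes as a dashed line. The numbers at the right give the members tested, those higher and lower at an unadjusted p under 0.05, and those called; the called members are in the irld family, the C-type lectins and the chemoreceptors.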

How the data were processed

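RNA of whole starved L1 larvae was extracted with TRIzol and made into poly(A)-selected libraries with the NEBNext Ultra II kit and ERCC spike-ins, per the labels' protocols. The deposited counts are whole reads per gene, made by the authors with Bowtie 1.2.2 on the WS273 genome (at most 2 places per read, 1 kept) and HTSeq 0.11.2, per the deposited workbook's notes and the submitters' processing notes. The setting for strand is not given in the sources used here. The authors' deposited interaction table holds log2 fold changes, F statistics (a score per gene) and p-values with FDR, made with edgeR 3.24.4. Its p-values and log2 values were read as deposited. The series' own tables of counts and CPM, with 32 library columns, were not used.

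From the 46911 genes of each file, 5 summary entries that name no gene were left out, which took 41.16% to 42.45% of the entries in the 8 libraries. Library totals of gene counts were 15527842 to 24903552 in these 8 libraries, and counting intervals cover counting error alone. Genes were kept where 4 or more of the 16 libraries reached 1 CPM. edgeR 4.0.16 (R 4.3.3) fitted 1 quasi-likelihood model with TMM scaling and robust dispersion to all 16 libraries in 4 groups. Adjusted p is Benjamini-Hochberg over all 14058 genes, called under 0.05, and the SE is the size of the log2 fold change divided by the square root of F. CPM uses TMM-scaled totals, and list means use log2 CPM with a prior count of 2. The script was tested on simulated data. Chromosome positions and classes come from Ensembl release 115 of WBcel235, in which 46857 identifiers were found. Copies that share a symbol were named as in the authors' table.

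Named genes were all called genes, the uncalled genes with the smallest unadjusted p whose groups do not overlap, the 2 members of each list with the highest mean CPM, the allele genes, and a few known readouts of the pathway (among them daf-16, sod-3 and daf-28). Lists and members were chosen with earlier results of these data known. The summed copies, the window bounds, the omission of 3 libraries and the filters on fewer libraries were chosen after seeing the data. The labels call the replicates biological. Other settings were the DESeq2 1.42.0 Wald test and its size factors, other filters, a test against a 1.5-fold change, a replicate block, fewer groups and libraries left out.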

Additional observations from a re-analysis of the deposited data

Results flagged for a closer look

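In 9 genes the difference between triple and daf-2 single mutant was unlike that between irld mutant and wild type, by the interaction term of edgeR's quasi-likelihood test. The daf-2 single mutant is 1 strain here too, so the irld alleles and other differences of CB1370 cannot be told apart. In ugt-64 the strain that stood apart was wild type. The log2 difference was 5.72 for srw-85 (adjusted p = 9.2e-07) and 2.33 for ttr-50 (adjusted p = 0.0197). It was -1.31 for Y45G12C.16 (adjusted p = 0.00121), -1.19 for C13B7.6 (adjusted p = 0.00299) and -1.15 for ugt-64 (adjusted p = 0.0139). For the lectin copies it was -4.75 for F56A4.2 and -4.72 for clec-209, each with an adjusted p of 1.92e-05. For the receptor-like copies it was -7.66 for irld-35 and -10.7 for irld-53, each with an adjusted p of 0.000452. Both copies were tested only because the daf-2 single mutant was high. With no filter on low counts their adjusted p was 1.97e-06 and 6.28e-05. The fitted value of irld-53 rests on 1 count in wild type and 9 in the irld mutant, and depends on the model's treatment of such low counts.

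A pair of groups held a library far from the other 3 in its gene. alh-2, an aldehyde dehydrogenase gene, had 9.08 CPM in daf-2 single mutant replicate 3 against 2.01 to 3.00 CPM in the other daf-2 single mutant libraries. phdh-1 had 135 CPM in LRB458 replicate 4 against 50.99 to 59.4 CPM in the other triple mutant libraries. These are 2 of 62 groups examined, and chance alone marks about 1 in 20.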

How the results depend on the processing

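The 13 calls of the triple mutant against CB1370 and the 9 interaction calls moved by over 1.5 times in the settings that follow. The DESeq2 Wald test called 27 genes (12 higher and 15 lower, with all 13 among them and 21 on chromosome V) and 22 interactions. A test against a 1.5-fold change called 7 and 5. Without LRB458 replicate 1 and daf-2 single mutant replicates 2 and 4, a choice made after seeing the data, 6 and 5 were called. Leaving out 1 library at a time gave 7 to 13 calls (8 without daf-2 single mutant replicate 1 and 7 without 2, 3 or 4) and 5 to 15 interaction calls (5 without daf-2 single mutant replicate 3 or 4 and 15 without wild-type replicate 4). With the filter at 3 libraries, also chosen afterwards, it stayed within 1.5 times, at 11 to 13 and 7 to 10.

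The replicate numbers were not seen to pair the libraries: deviations of same-numbered triple and daf-2 single mutant libraries correlated at 0.15, -0.19, -0.052 and -0.46. Only LRB457 replicate 1 correlated best with the daf-2 single mutant library of its own number. These few correlations lie between a single pair of groups and cannot decide whether libraries of a number share a batch. With the replicate block 17 genes were called (12 of the 13) and 12 interactions. In the replicate block fit of the 8 libraries alone 6 were called (5 of the 13), also over 1.5 times fewer. noah-2 was called in both block fits.

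Of the 13 genes, irld-35, irld-53, srw-85, F56A4.2 and clec-209 kept direction and call in every setting that tested them. The other 8 kept their direction and lost the call in at least 1 setting. ZC190.8 lost it in 19 of 25 settings, C01B4.6 in 17 of 30, Y43F8C.3 in 16 of 30 and Y19D10A.16 in 6 of 30. Y45G12C.16 and C13B7.6 lost it in 2 of 30 each, F56A4.3 in 1 of 30 and srbc-15 in 1 of 24. The uncalled daf-16, daf-28, hsp-12.6 and sod-3 changed sign between settings, and the cause was not tested. daf-28 ranged from -0.36 to 0.94 over all settings, the highest without the 3 libraries with the filter at 2, and hsp-12.6 from -0.47 to 0.22. sod-3 was at 0.0097 with the replicate block, and daf-16 at 0.033 in the 8-library block. Without line LRB458, sod-3 was at 0.035, daf-16 at 0.026 and hsp-12.6 at 0.22, and without LRB457 daf-28 was at -0.36. Without the 3 libraries, daf-16 was at 0.031 and hsp-12.6 at 0.0042, and with the filter at 2 libraries 0.057 and 0.031. Over single omissions daf-28 ranged from -0.19 to 0.46 and hsp-12.6 from -0.28 to 0.13. With the filter at 3 libraries, daf-16 was at 0.0103 without LRB458 replicate 1 and at 0.016 without daf-2 single mutant replicate 2. Likewise sod-3 was at 0.00088 and hsp-12.6 at 0.155 without LRB458 replicate 1. Without daf-2 single mutant replicate 3, hsp-12.6 was at 0.014 and daf-28 at -0.189, and without LRB457 replicate 3 daf-28 was at -0.114. Depth limits the allele genes irld-39 and irld-52, with 13 to 27 counts per group.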

Other observations

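The genes at an unadjusted p under 0.05 made up 4.87% (chromosome III) to 8.71% (chromosome V) of the genes tested on a chromosome. Over all genes the share was 6.51%, with 3.82% higher and 2.69% lower. On the X chromosome, which held 2094 tested genes, the share of 7.12% was near that of all genes. There 132 were higher and 17 lower in the triple mutant, although none was called and the median log2 fold change was 0.0413. On chromosome I (2224 tested) the counts were 52 higher and 77 lower (5.8%), with a median of -0.0369, and on chromosome III (2175 tested) 51 and 55. Chromosome V (2974 tested) had 149 higher and 110 lower, and 24 genes at an unadjusted p under 0.001, the 13 called ones included, against 0 to 3 on each of the other chromosomes.

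Over all genes, 1000 had a fitted change of more than 1.5-fold upward and 155 of more than 1.5-fold downward, whereas 605 of the 889 genes without overlap between the groups were lower. Genes of the dauer hormone pathways (20 tested) had 3 higher and 0 lower at an unadjusted p under 0.05 (15%, against 6.51% of all genes), with a median of 0.09. The histone genes (17 tested) had 2 higher and 2 lower (23.5%), and hil-1, which encodes a linker histone, had 463 ± 15.97 CPM in the daf-2 single mutant and 358 ± 18.9 in the triple mutant (mean ± SD, 4 libraries each; adjusted p = 0.666, edgeR). All 8 neuron markers had a fold change above 0 (6539 of 14058 among all genes), with a median of 0.07 and no member at an unadjusted p under 0.05.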
